A study of Homo sapiens with 6 samples.

Results

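The p53 pathway and target genes described here were 35 of the 12768 genes in the count table of LNCaP cells with and without knockdown of PRMT5. They were taken by symbol from a list of 37 symbols, in which C12orf5 is the older name of TIGAR, so that 36 genes were listed. All but EDA2R, which was not analysed here, were measured. All 35 passed the filter on low counts, as did every gene of the table. LNCaP is an androgen-responsive human prostate cancer line, and PRMT5 is an enzyme that places symmetric dimethylarginine on histones, splicing proteins and other proteins. The cells carried a stably transfected plasmid with a short hairpin RNA against PRMT5 that doxycycline switches on. Doxycycline was present for 4 days in 3 knockdown cultures (shRNA on) and absent for 4 days in 3 no-knockdown cultures, all grown in RPMI 1640 with fetal bovine serum, and the labels do not say whether the line was 1 clone. No doxycycline-treated culture without the hairpin is among the samples, so the drug and the knockdown cannot be told apart. The series text calls the 3 cultures of a group biological replicates and asks which genes differ after PRMT5 knockdown.

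The transcription factor p53 is kept scarce in unstressed cells by MDM2, a ubiquitin ligase, and by its relative MDM4, which binds and silences the p53 activation domain. When stress releases p53 it binds a consensus element near its target genes and raises their transcription, MDM2 among them, which closes a feedback loop. Other targets stop the cell cycle, start apoptosis, repair DNA or adjust metabolism. PRMT5 has been reported to methylate p53 and to keep an exon of MDM4 in its mRNA. A table with 1 count per gene holds no exon usage, and neither the p53 protein nor its methylation was measured.

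The promoters of the genes were searched for that consensus element because it is what p53 binds, and the matches are shown here to set the fold changes beside the sequence. RefSeq promoters (GRCh38.p14, 250 bases before to 50 after a start site) were at hand for 28 of the 35 genes. An element was 2 decamers of the p53 consensus, at most 1 base apart, with at most 2 mismatches over 20 positions, and since the element reads alike on both strands, 1 strand was searched. A match was present for 4 of the 28 genes (14.3%) and for 1.69% of all 27305 genes with a promoter. Known p53 targets were in part found through such sites, so this share is no independent result. MDM2, FAS and AEN have 2 mismatches each. The fifth sequence, that of SESN1, has 3 mismatches and is shown because SESN1 was the gene called lower below. At most 3 mismatches were found in 12 of the 28 genes and in 11.9% of all genes. Capitals mark the decamers.
DDB2: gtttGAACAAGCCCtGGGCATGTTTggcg
MDM2: agctGGTCAAGTTCAGACACGTTCcgaa
FAS: tcctGGACAAGCCCTGACAAGCCAagcc
AEN: agccGGGCTTGCCCGGGCATGTGGgagc
SESN1: gtctGGACAAGTCTCCACAAGTCAgaaa

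With its 4 flanking bases on each side, the DDB2 element of 0 mismatches spans chr11:47214975-47215003 on the plus strand, and the element itself begins 5 bases after a start site. With the same flanks the MDM2 element spans chr12:68808919-68808946 on the plus strand, 94 bases before an annotated start, and the FAS element at chr10:88991305-88991332 on the plus strand. The AEN element spans chr15:88621302-88621329 on the plus strand and that of SESN1 at chr6:109009014-109009041 on the minus strand. A match is a run of letters and was not tested as a binding site. The element of CDKN1A that p53 is best known to bind lies farther upstream than the promoter sequences reach.

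PRMT5 stood at 88.7, 91.96 and 82.8 CPM (CPM, a count relative to the TMM-scaled library total, is the scale of all levels below unless another is named) without knockdown and at 9.69, 10.8 and 10.6 CPM with it, so each library matched its label. The 6 libraries held 7911853 to 15831938 counted reads. All 9 luminal prostate markers fixed for the check had a row, with a summed level of 4578 to 4765 CPM without and 4363 to 4480 CPM with knockdown. Of the 4 basal markers none had a row. Of the other 15 markers, 4 of 5 fibroblast genes (summed level 48.7 to 55.3 and 54.8 to 58.03 CPM), 1 of 3 leukocyte genes, 1 of 3 endothelial genes and 2 of 4 neuroendocrine genes had a row, and PTPRC, CD3E, PECAM1 and CHGA did not. The neuroendocrine genes SYP and ENO2 summed to 100.6 to 104.4 CPM without and 94.65 to 99.32 CPM with knockdown. The endothelial gene VWF stood at 13.8 to 17.51 and 10.92 to 17.25 CPM, and the leukocyte gene CD68 at 1.375 to 1.631 and 1.425 to 1.671 CPM. Replicate 2 of both groups deviated together from replicates 1 and 3. Fits with the replicate number as a block are therefore given beside each result they change. In bulk RNA fewer cells of a kind and less RNA per cell cannot be told apart.

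Most of the 35 genes lay slightly higher after PRMT5 knockdown. None of them rose by enough to pass the test over all genes without the replicate block, and the sestrin gene SESN1 fell. Of the 35 genes 26 (74.3%) had a log2 fold change above 0, against 49.6% of all genes tested, and their median log2 fold change was 0.15, against -0.0021 for all genes. By edgeR's quasi-likelihood test with adjustment over all genes, 0 were called higher and 1, SESN1, was called lower at an adjusted p of 0.05, where 0.337% of all genes were called higher and 1.14% lower (1.48% in all). At an unadjusted p under 0.05, 11 were higher and 1 lower (5.19% and 8.84% of all genes), and DESeq2 called ZMAT3 higher and SESN1 lower (0.713% and 1.66% of all genes). With the replicate block 8 were called higher (ZMAT3, DDB2, BAX, FBXO22, RPS27L, AEN, CDKN1A and TNFRSF10B) and 1 lower, where 3.21% of all genes were called higher and 5.1% lower (8.31% in all). In the authors' deposited table, ZMAT3, DDB2 and FBXO22 stand higher and SESN1 lower under a false discovery rate of 0.05, beside 1.02% and 2.68% of all genes. The pattern was present in each numbered pair of cultures, with 29, 24 and 25 of the 35 genes higher and median log2 ratios of 0.21, 0.11 and 0.18. These pairs rest on the replicate number alone. The labels do not give pairing, and the data do not separate numbers 1 and 3 as pairs. In all 3 pairs 20 genes (57.1%) were higher and 3 (8.57%) lower, beside 20.9% and 22.8% of all genes.

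**Figure D1:**
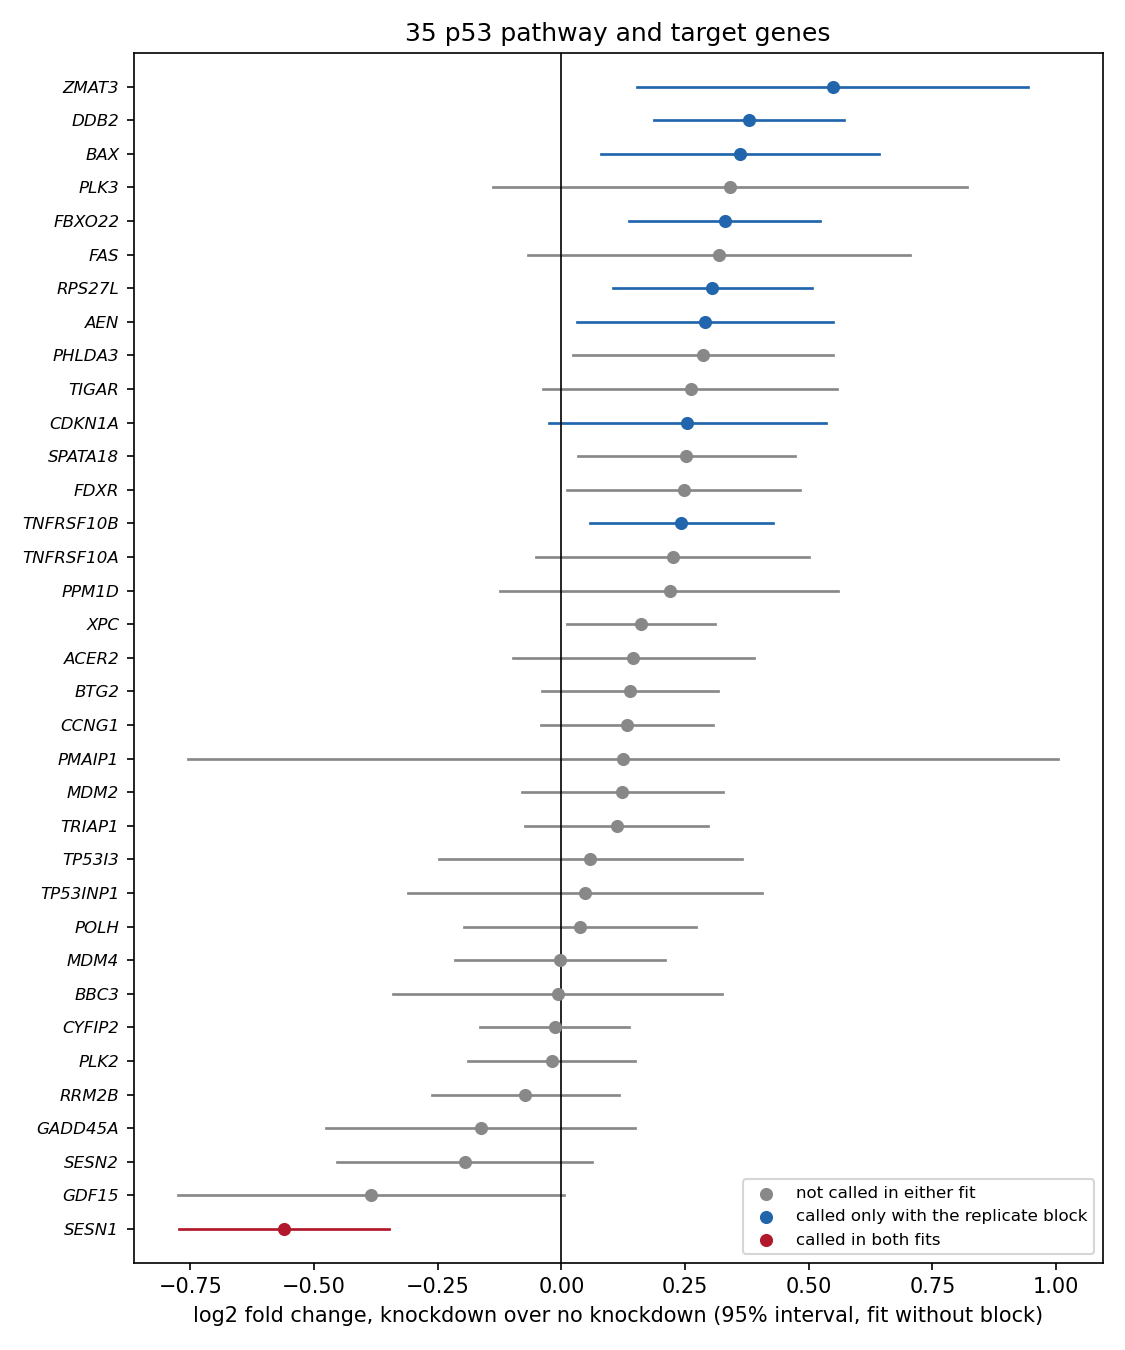
Log2 fold change of each of the 35 genes after PRMT5 knockdown (x axis) with its 95% interval from the fit without the block, ordered by size (y axis). Most points lie to the right of 0, between 0 and 0.55, SESN1 is lowest at -0.56, and the 8 genes called only with the replicate block are marked.

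Replicate 2 of both groups held the lowest level of its group for 16 of the 35 genes (45.7%), where 23.5% of all genes did so. PPM1D, a phosphatase gene, was lower there by 0.45 on the log2 scale in both groups, TP53INP1 by 0.44 and 0.48, and CDKN1A by 0.41 and 0.30. These offsets are as large as or larger than the shifts between the groups for the same genes. Without replicate 2 of both groups, which leaves 2 libraries a group, the blocked fit called 15 of the 35 genes higher and 3 lower, where 8.79% and 9.94% of all genes were called. The 7 genes added on the higher side were MDM2, FAS, CCNG1, XPC, TIGAR, SPATA18 and PPM1D, and those added on the lower side were GDF15 and SESN2. Without replicate 2 and without the block, 13 were called higher and 3 lower (7.64% and 9.12% of all genes).

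**Figure D2:**
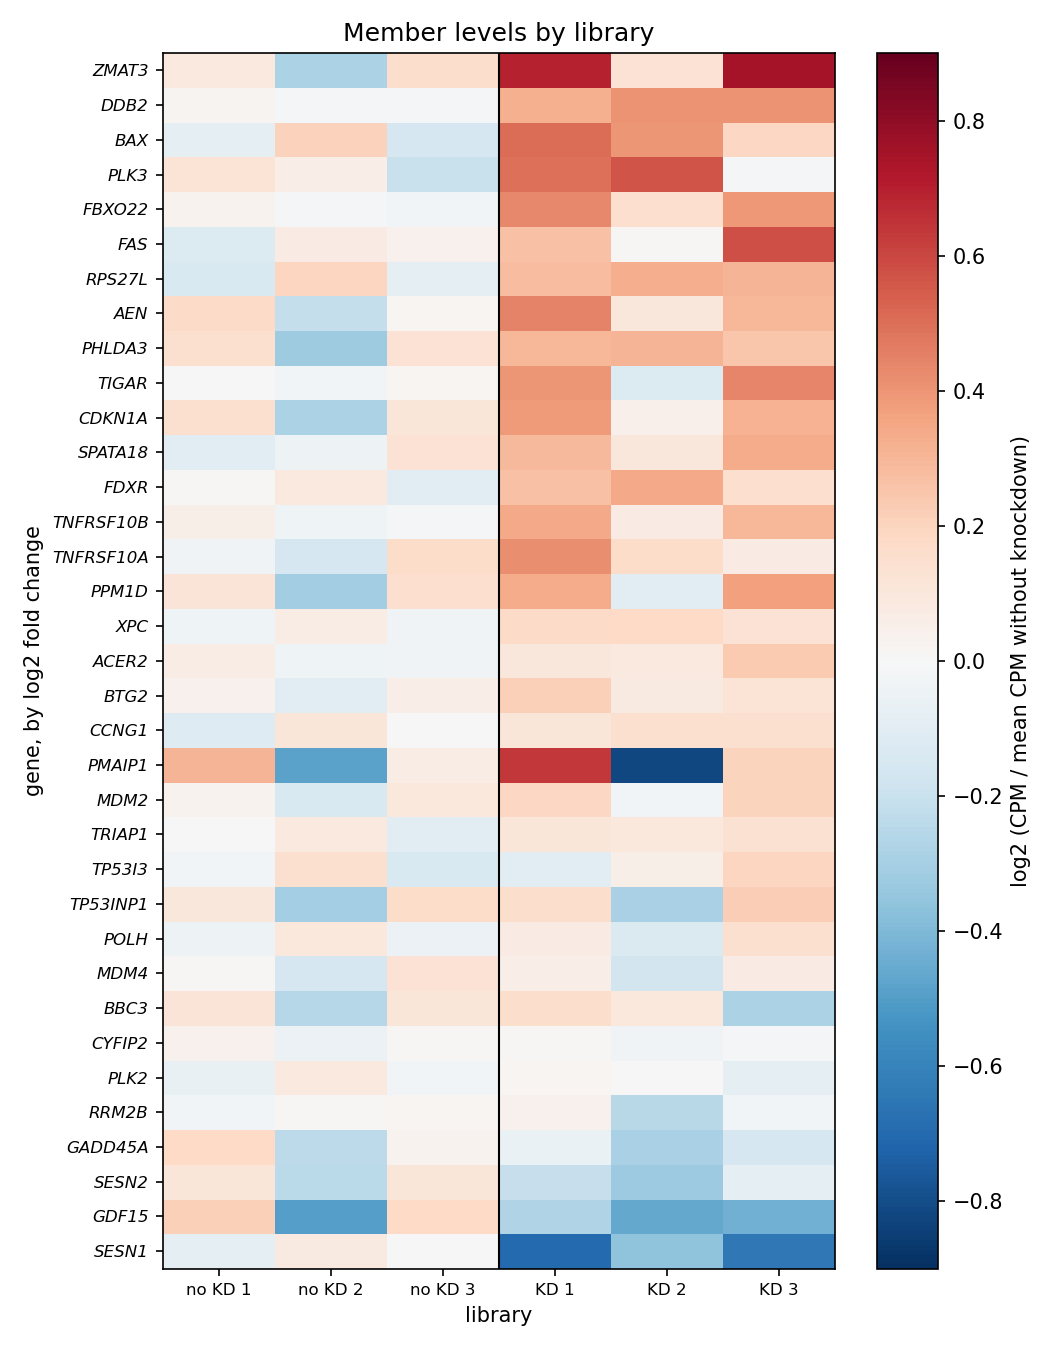
Level of each of the 35 genes (rows, ordered by log2 fold change) in the 6 libraries (columns), as log2 of CPM over the mean CPM without knockdown. Most rows in the upper part are red in the knockdown libraries, with TIGAR and PPM1D pale blue in knockdown replicate 2, SESN1 is blue in all 3, and replicate 2 is paler or bluer than replicates 1 and 3 of its own group in genes such as ZMAT3, CDKN1A, PPM1D and TP53INP1.

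The genes that restrain p53 showed no call in the fits with all 6 libraries. MDM4 lies on chromosome 1 (204516379 to 204558120, GRCh38, GENCODE 29) and stood at 105.6, 94.5 and 114.9 CPM without knockdown and at 109.7, 93.8 and 110.4 CPM with it. The groups lay over each other, with a log2 fold change of -0.0034 and a 95% interval of -0.22 to 0.21 (edgeR adjusted p = 0.99). A change of total MDM4 mRNA within that interval, or a shift between its isoforms, was not detectable in these counts. MDM2, on chromosome 12 (68808176 to 68850686), stood at 415.5, 369.7 and 434.6 CPM and at 462.4, 399.0 and 466.9 CPM. It was higher in 3 of 3 pairs by 0.15, 0.11 and 0.10 on the log2 scale, but the groups overlapped (log2 fold change 0.12, standard error 0.091, adjusted p = 0.60, and 0.24 with the block). Per kilobase of gene length, the level without knockdown was 53.8 RPKM (CPM divided by gene length in kilobases) for MDM2 and 10.4 RPKM for MDM4. PPM1D, a phosphatase that returns p53 and its kinases to rest, had a log2 fold change of 0.22 (standard error 0.15, adjusted p = 0.57), and CCNG1, cyclin G1, which acts on MDM2 through a phosphatase, one of 0.13 (standard error 0.078, adjusted p = 0.49). Both were higher in 3 of 3 pairs.

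Among genes that stop or slow the cell cycle, CDKN1A, which encodes the cyclin-dependent kinase inhibitor p21, stood at 240.4, 178.8 and 234.8 CPM without knockdown and at 284.3, 225.2 and 270.5 CPM with it. It was higher in each pair, by 0.24, 0.33 and 0.20 on the log2 scale, although the knockdown culture of pair 2 lay below 2 of the no-knockdown cultures. The log2 fold change of 0.25 (standard error 0.12) did not pass without the block (edgeR adjusted p = 0.41) and passed with it (0.26, standard error 0.058, adjusted p = 0.013). Without no-knockdown replicate 2, the lowest library, it was 0.13 (adjusted p = 0.58), and without the other single libraries it was 0.20 to 0.35 (adjusted p from 0.15 to 0.81). BTG2, an antiproliferative gene, had 67.5 ± 4.02 and 74.3 ± 3.50 CPM (SD, n = 3) and groups that did not overlap, and the log2 fold change of 0.14 did not pass (adjusted p = 0.48, and 0.26 with the block). The polo-like kinase genes PLK3 (0.34) and PLK2 (-0.02) and the growth arrest gene GADD45A (-0.16) did not pass in either fit. PLK3 was the lowest of the 35 genes per length, at 1.71 RPKM without knockdown, and its standard error of 0.22 was among the largest.

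The 7 genes that act in apoptosis inside the cell held 2 of the 8 called higher with the block. That fit called 3.21% of all genes higher. BAX, which opens the outer mitochondrial membrane, stood at 20.1, 24.5 and 19.1 CPM without knockdown and at 30.01, 27.98 and 24.2 CPM with it, so that the highest no-knockdown culture lay just above the lowest knockdown culture. Its log2 fold change was 0.36 (standard error 0.13, edgeR adjusted p = 0.23) and 0.37 with the block (standard error 0.10, adjusted p = 0.039). AEN, a nuclease that promotes apoptosis, stood at 80.2, 61.2 and 71.9 CPM and at 96.9, 76.4 and 87.7 CPM. It was higher in each pair by nearly the same step, 0.27, 0.32 and 0.29 on the log2 scale, over replicate levels that differed as much (log2 fold change 0.29, adjusted p = 0.30, and 0.016 with the block). The BH3-only genes, which start the mitochondrial pathway, were not called. BBC3, which encodes PUMA, had 12.2 ± 1.73 and 12.3 ± 1.95 CPM and a log2 fold change of -0.0078 (95% interval -0.34 to 0.33). PMAIP1, which encodes NOXA, stood at 36.2, 20.99 and 30.6 CPM and at 45.5, 16.6 and 33.7 CPM, the widest spread of the 35 genes (log2 fold change 0.12, standard error 0.37). In replicate 2 its level was lower than in the others by 0.67 without and 1.24 with knockdown on the log2 scale. TP53INP1, a stress-induced gene of p53 phosphorylation and autophagy, had 1168 ± 197 and 1208 ± 221 CPM, the oxidoreductase gene TP53I3 a log2 fold change of 0.06, and TRIAP1, which guards against apoptosis, one of 0.11. These 3 did not pass in either fit.

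The 3 cell-surface death receptors measured all lay above 0. TNFRSF10B, the TRAIL receptor DR5, stood at 204.8, 192.4 and 195.6 CPM without knockdown and at 250.7, 207.5 and 243.0 CPM with it. The groups did not overlap, which 8.22% of all genes show on the higher side and which 10 of the 35 genes showed. Its log2 fold change was 0.24 (standard error 0.083, edgeR adjusted p = 0.22, and 0.026 with the block). TNFRSF10A, the receptor DR4, had a log2 fold change of 0.22 (standard error 0.12, adjusted p = 0.46), and FAS, the receptor of Fas ligand, one of 0.32 (standard error 0.17, adjusted p = 0.45). FAS stood low, at 8.07 ± 0.57 and 9.96 ± 2.00 CPM, and neither passed with the block (adjusted p = 0.25 for TNFRSF10A and 0.26 for FAS). Whether the counting used strand is not given in the sources used here. Among the 35 genes, exons of FAS, TNFRSF10B, TP53I3, XPC and POLH overlap those of a measured gene on the opposite strand. How reads in the shared stretches were counted is not known, so these counts may be too high or too low.

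Of the 4 genes of DNA repair and nucleotide supply, DDB2 came nearest to a call in the fit without the block. DDB2, which recognises ultraviolet damage in DNA and lies on chromosome 11 (47214465 to 47239240, GRCh38), stood at 25.6, 24.9 and 24.8 CPM without knockdown and at 31.3, 33.3 and 33.3 CPM with it. Both groups were tight and far apart for their size, with a log2 fold change of 0.38 (standard error 0.087, 95% interval 0.19 to 0.57, edgeR adjusted p = 0.069, and 0.019 with the block). The promoter of DDB2 is the one with the element of 0 mismatches printed above. Of the genes with 2 mismatches, AEN was called higher with the block (edgeR adjusted p = 0.016). MDM2 and FAS were not (0.24 and 0.26). A link between element and fold change was not tested. XPC, which starts nucleotide excision repair, had 129 ± 5.21 and 144 ± 2.57 CPM with groups that did not overlap (log2 fold change 0.16, standard error 0.067, adjusted p = 0.32, and 0.13 with the block). The translesion polymerase gene POLH (0.04) and RRM2B, the p53-induced ribonucleotide reductase subunit (-0.07, 95% interval -0.26 to 0.12), did not pass in either fit.

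Among genes of metabolism and stress, SESN1 was the one called of the 35. SESN1 encodes sestrin 1, which restrains mTORC1 signalling, and lies on chromosome 6 (108986437 to 109094819, minus strand, GRCh38). It stood at 242.6, 272.1 and 257.5 CPM without knockdown and at 158.3, 200.2 and 165.0 CPM with it. Each knockdown library lay below each no-knockdown library, and the fall was 0.62, 0.44 and 0.64 on the log2 scale in the 3 pairs, that is to 0.68 of the level. The log2 fold change was -0.56 (standard error 0.096, 95% interval -0.77 to -0.35, edgeR adjusted p = 0.020, and 5.26e-05 with the block). The call was lost without no-knockdown replicate 1 or 3 or knockdown replicate 1 or 3 (adjusted p = 0.061, 0.11, 0.15 and 0.14), in fits that called 3 to 6 of all genes higher and 21 to 46 lower. SESN2, its relative, which is also a target of the stress factor ATF4, stood at 43.1, 33.7 and 43.04 CPM and at 34.7, 31.9 and 37.8 CPM, lower in 3 of 3 pairs (log2 fold change -0.20, adjusted p = 0.49, and 0.18 with the block). GDF15, a secreted stress cytokine gene that p53 and ATF4 both raise, stood at 248.3, 151.9 and 242.3 CPM and at 177.8, 155.7 and 158.5 CPM. It was lower in pairs 1 and 3, by 0.48 and 0.61 on the log2 scale, and not in pair 2, where the no-knockdown culture was already as low as the knockdown cultures. Its log2 fold change of -0.39 (standard error 0.17, adjusted p = 0.36) was -0.58 without no-knockdown replicate 2 (adjusted p = 0.0068), -0.26 without no-knockdown replicate 1 (0.59) and -0.29 without no-knockdown replicate 3 (0.64). TIGAR, which lowers fructose-2,6-bisphosphate, was higher in pairs 1 and 3 (0.39 and 0.42 on the log2 scale) and stood at 50.9, 49.9 and 51.3 CPM and at 66.7, 46.5 and 68.6 CPM. Its log2 fold change of 0.26 (adjusted p = 0.43) was 0.42 without knockdown replicate 2 (adjusted p = 0.026), 0.20 without knockdown replicate 1 (0.81) and 0.16 without knockdown replicate 3 (0.80). FDXR, the mitochondrial ferredoxin reductase (0.25), SPATA18, a gene of mitochondrial quality control (0.25), and ACER2, an alkaline ceramidase (0.15), were higher in 3 of 3 pairs and did not pass in either fit.

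**Figure D3:**
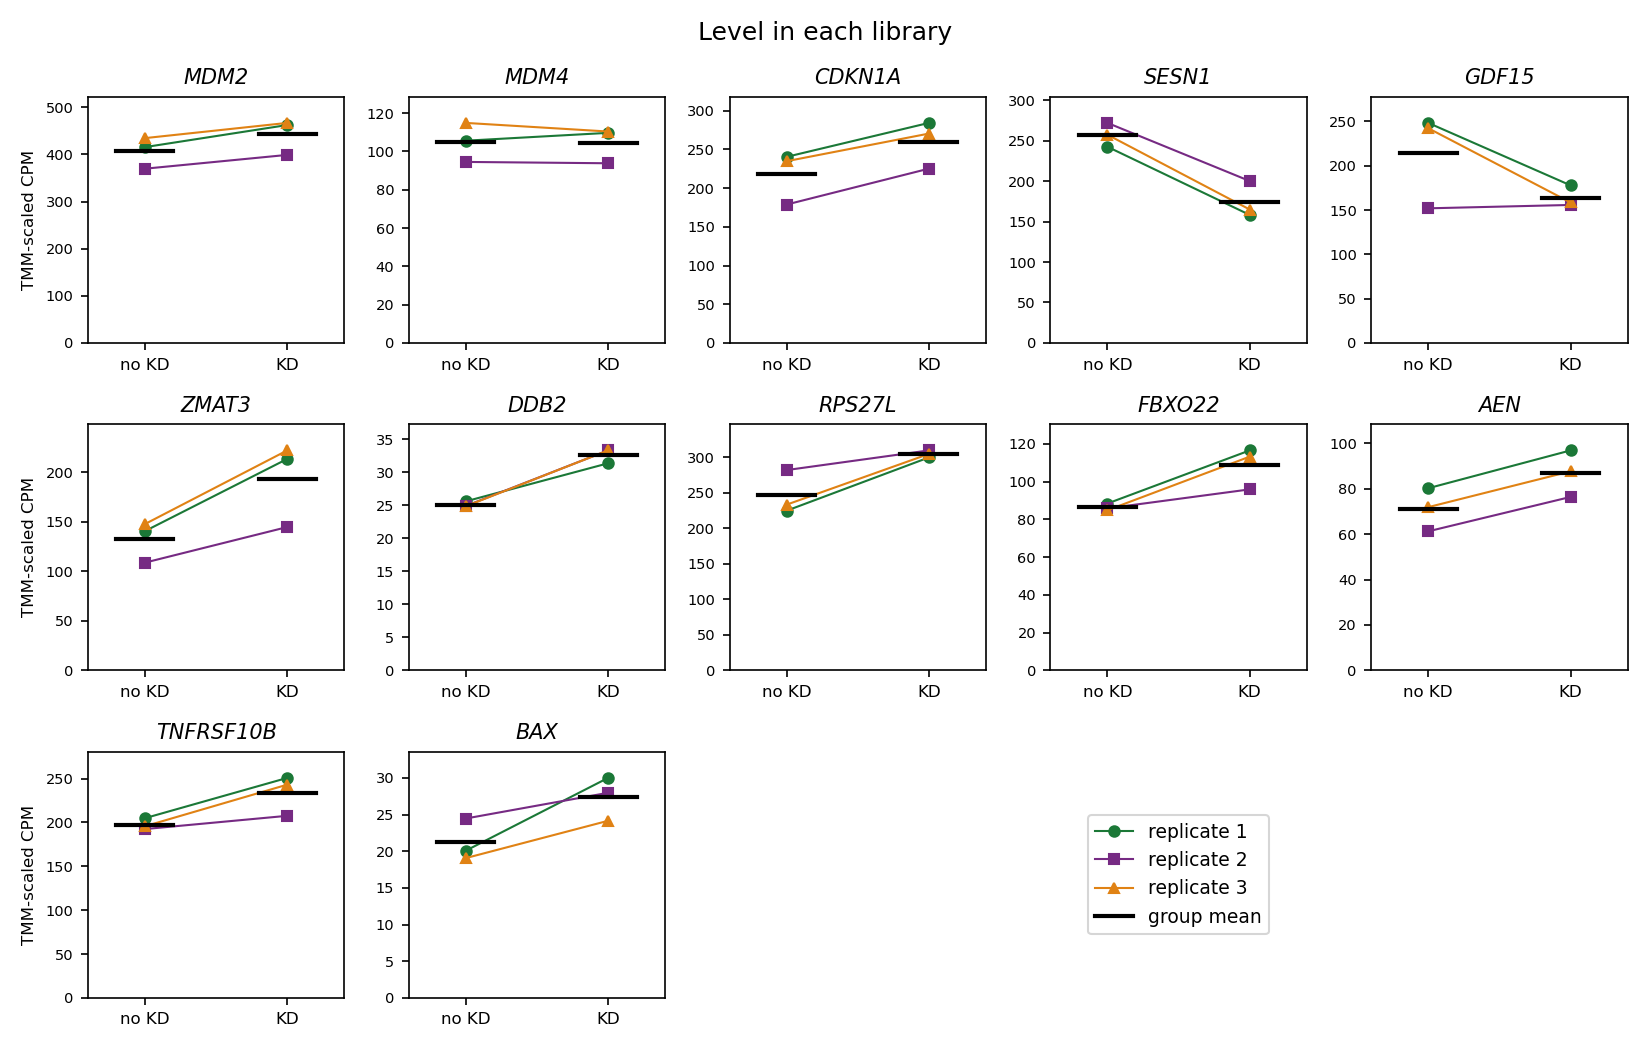
TMM-scaled CPM (y axis, from 0) of MDM2, MDM4, CDKN1A, SESN1, GDF15 and 7 further p53 targets without (no KD) and with (KD) knockdown; lines join libraries of the same replicate number and black bars are group means. SESN1 falls in each pair, ZMAT3, DDB2, RPS27L, FBXO22, AEN, TNFRSF10B, BAX, CDKN1A and MDM2 are higher in each pair, and replicate 2 runs below the other 2 replicates for ZMAT3, CDKN1A and AEN.

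The remaining 5 genes held the highest log2 fold change of the list. They also held 3 of the 8 genes called higher with the block, where 3.21% of all genes were called higher. ZMAT3, an RNA-binding zinc finger protein and mediator of p53 tumour suppression, lies on chromosome 3 (179017223 to 179072279, minus strand, GRCh38) and stood at 140.5, 108.7 and 147.6 CPM without knockdown and at 213.3, 144.6 and 221.9 CPM with it. It was higher by 0.60, 0.41 and 0.59 on the log2 scale in the 3 pairs, and the groups overlapped only through replicate 2. The log2 fold change was 0.55 (standard error 0.17, edgeR adjusted p = 0.20), 0.54 with the block (standard error 0.063, adjusted p = 1.20e-04), and it ranged from 0.43 to 0.72 when 1 library was left out, passing without knockdown replicate 2 alone (adjusted p = 0.014, and 0.34 to 0.59 otherwise). RPS27L, a ribosomal protein-like gene that moderates MDM2, stood at 224.8, 282.0 and 233.3 CPM and at 299.8, 309.7 and 304.7 CPM. The groups did not overlap (log2 fold change 0.30, standard error 0.091, adjusted p = 0.16, and 0.0091 with the block), and with 1 library left out it ranged from 0.24 to 0.41, passing without no-knockdown replicate 2 alone (adjusted p = 0.016, and 0.15 to 0.46 otherwise). RPS27L was the highest of the 35 genes per length, at 228 RPKM without knockdown, where the median of the 35 was 15.7 RPKM. It resembles RPS27, so reads could have been split between them. FBXO22, a ubiquitin ligase subunit, stood at 88.4, 85.8 and 84.8 CPM and at 116.5, 95.9 and 113.2 CPM, with no overlap (log2 fold change 0.33, standard error 0.087, adjusted p = 0.10, and 0.012 with the block). PHLDA3, which opposes AKT signalling, had 44.3 ± 7.63 and 54.1 ± 1.07 CPM, again with no overlap (log2 fold change 0.29, adjusted p = 0.31, and 0.079 with the block). CYFIP2, a cytoskeletal regulator gene, had a log2 fold change of -0.01 (95% interval -0.16 to 0.14).

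The other genes of the pathway were read from 3 further lists. Of 35 genes of p53 regulators, which modify, bind or degrade p53, 20 (57.1%) lay above 0, against 49.6% of all genes. The median was 0.03 on the log2 scale. By edgeR without the block 0 were called in either direction (0.337% of all genes higher and 1.14% lower), and 0 by DESeq2 (0.713% and 1.66%). At an unadjusted p under 0.05, 1 was higher and 3 lower, beside 5.19% and 8.84% of all genes. With the block, which called 3.21% of all genes higher and 5.1% lower, 2 were called higher, the acetyltransferase genes EP300 (0.26, adjusted p = 0.042) and CREBBP (0.27, adjusted p = 0.045), and 2 lower, the ubiquitin ligase gene SIAH1 (-0.27, adjusted p = 0.023) and the lysine methyltransferase gene SETD7 (-0.22, adjusted p = 0.039). Without the block the edgeR adjusted p was 0.63 for EP300 and 0.65 for CREBBP, with groups that overlapped. It was 0.14 for SIAH1 and 0.20 for SETD7, with groups that did not.

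Of 60 further genes described as p53 targets 37 lay above 0, the median was 0.06 on the log2 scale, and 3 were called higher and 0 lower without the block, where 49.6% of all genes lay above 0, 0.337% were called higher and 1.14% lower. TNFRSF10D, a decoy receptor of TRAIL on chromosome 8 (23135588 to 23164030, GRCh38), stood at 220.6, 218.8 and 221.1 CPM without knockdown and at 321.3, 286.4 and 305.4 CPM with it (log2 fold change 0.47, standard error 0.070, edgeR adjusted p = 0.013). The 3 no-knockdown libraries lay almost on each other and well below the knockdown libraries. The TRAIL receptor genes are related in sequence, and how reads were split among them was not tested. TNFRSF10C, another decoy receptor gene among them, was lower in 3 of 3 pairs with groups that did not overlap (5.33 ± 1.06 and 3.72 ± 0.92 CPM, log2 fold change -0.49, edgeR adjusted p = 0.40, and 0.12 with the block). ASCC3, a helicase gene on chromosome 6 (100508194 to 100881372), stood at 269.2, 289.4 and 281.4 CPM and at 401.0, 341.4 and 430.7 CPM (log2 fold change 0.48, standard error 0.092, adjusted p = 0.031). E2F7, a transcriptional repressor of cell-cycle genes, was counted 6, 3 and 4 times without knockdown and 17, 17 and 30 times with it (0.45 ± 0.13 and 1.71 ± 0.19 CPM, log2 fold change 1.90, standard error 0.36, adjusted p = 0.029). E2F7 passed the low-count filter through the knockdown libraries, and its fold rests on 13 reads without knockdown. The calls of all 3 were lost without no-knockdown replicate 1 or 3 or knockdown replicate 1 or 3 (adjusted p from 0.072 to 0.18), and that of E2F7 also without no-knockdown replicate 2 (0.065) and by DESeq2 (0.066). With the block (3.21% of all genes higher and 5.1% lower) 7 were called higher, with ZNF337 (0.29), NINJ1 (0.27), DRAM1 (0.41) and PIDD1 (0.51) joining, and 2 lower, TLR3 (-0.66) and SYTL1 (-0.39), at adjusted p from 2.35e-04 to 0.045. Without the block the edgeR adjusted p was 0.098 for ZNF337, 0.20 for NINJ1, 0.61 for DRAM1 and 0.25 for PIDD1. It was 0.18 for TLR3, counted 35 to 69 times a library, and 0.14 for SYTL1. The groups of DRAM1 overlapped (standard error 0.31 without the block).

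Genes repressed through p53, p21 and the DREAM complex, chiefly cell-cycle genes, were not called in the fits with all 6 libraries. Of the 21 with a row 14 (66.7%) lay above 0, against 49.6% of all genes, and the median was 0.06 on the log2 scale. By edgeR without the block 0 were called in either direction, beside 0.337% of all genes higher and 1.14% lower. With the block 0 were called (3.21% and 5.1% of all genes), and 0 by DESeq2 (0.713% and 1.66%). At an unadjusted p under 0.05, 1 was higher and 0 lower, beside 5.19% and 8.84% of all genes. The 2 with the smallest p were RRM2, a ribonucleotide reductase subunit gene (2.56 ± 0.27 and 3.88 ± 0.37 CPM, log2 fold change 0.61, adjusted p = 0.21), and KIF23, a kinesin gene of cytokinesis (0.45, adjusted p = 0.37). Without replicate 2 of both groups 5 were called higher, with and without the block (8.79% and 7.64% of all genes). Without knockdown replicate 2 alone 1 was called higher, where 179 of all genes were. The pairs did not share a direction, with 14, 5 and 18 of the 21 genes higher in pairs 1, 2 and 3.

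**Figure D4:**
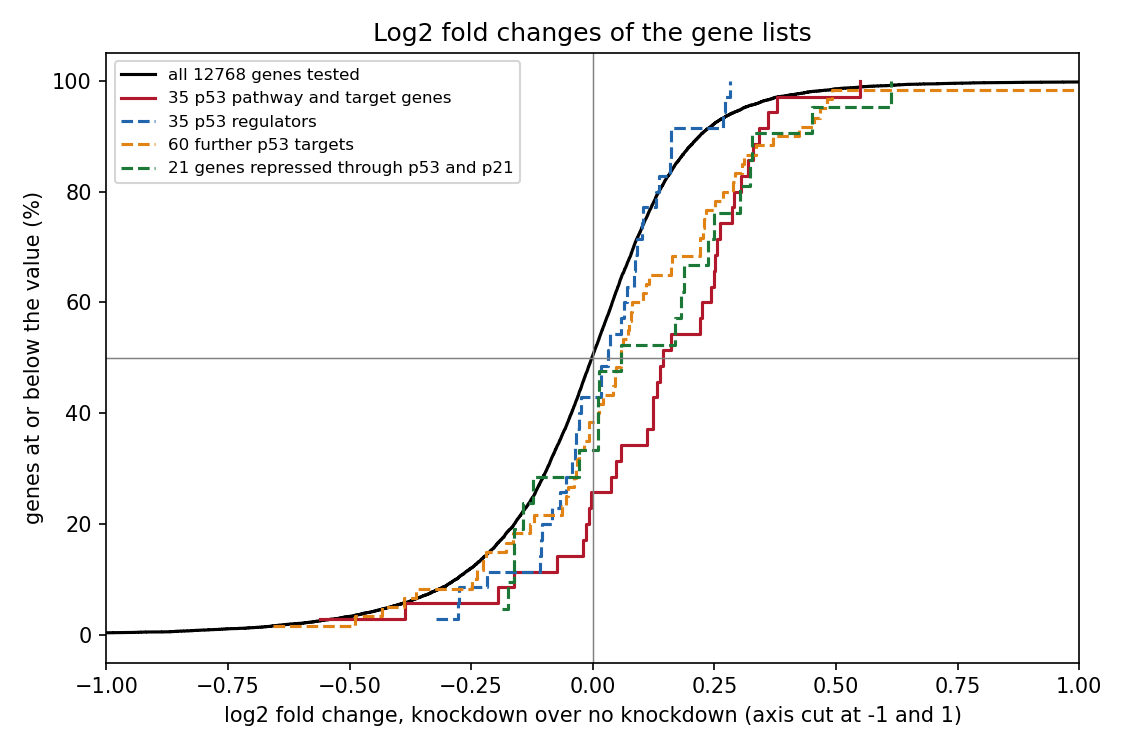
Cumulative share of genes (y axis, percent) at or below each log2 fold change (x axis, from -1 to 1) for all genes tested, the 35 p53 pathway and target genes and the 3 further lists; E2F7, at 1.90, lies beyond the axis. The curve of the 35 genes crosses 50% at 0.15, that of all genes near 0, and those of the 3 other lists at 0.03 to 0.06.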

How the data were processed

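RNA from 6 LNCaP cultures, 3 with and 3 without PRMT5 knockdown, was taken up in Trizol and a contract laboratory built the libraries (NEBNext Ultra II), per the labels' protocols. The submitters' processing notes name STAR 2.5, Subread 1.6.5 with featureCounts, edgeR 3.20.8, bcl2fastq and hg38. Annotation, strand setting and count filter: not given in the sources used here. Per the file headers, the authors deposited raw counts per gene, log2 CPM, log2 fold changes, p-values with false discovery rates, and gene lengths. The coordinates of the table are not those of GENCODE 29, so positions come from GENCODE 29 (GRCh38) by name.

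The test of the raw counts of 12768 genes used edgeR 4.0.16 under R 4.3.3 (scaled by TMM, and a quasi-likelihood fit, robust, with no term but the group; p-values Benjamini-Hochberg adjusted over all genes; threshold 0.05). The filter filterByExpr, set to 10 counts and 15 in total, removed 0 genes. Standard errors are the unshrunken log2 fold change divided by the square root of the F statistic. RPKM used the deposited lengths. A count of 3 is worth 0.19 to 0.38 CPM. The fits were tested on data simulated from the blocked model, with planted changes larger than that of any member. The simulation therefore tests neither the pairing nor calls of the members' size. Alternatives were DESeq2 1.42.0, limma-voom (limma 3.58.1), other scalings and filters, the replicate block, and leaving out libraries. Same-numbered libraries had correlated deviations (0.34, 0.45 and 0.17 for numbers 1, 2 and 3, from log2 CPM, prior count 2). Each was above 0.1, and on this ground the numbers were used as pairs, which the labels do not give. No-knockdown replicate 3 and knockdown replicate 1 also correlated by 0.23. No-knockdown replicate 1 and knockdown replicate 3 correlated by 0.20, above the 0.17 of number 3 itself. The cut of 0.1 thus sets number 2 apart and does not separate numbers 1 and 3 as pairs.

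The members and lists were chosen with earlier results of these data known, and the promoter search was set after the fits were seen. By the rule for named genes, per-library values are given for members called without or with the block and for MDM2, MDM4, CDKN1A and PRMT5, and 1 further gene of the rule is not reported here. From each further list the rule takes the genes called in either fit, or else the 2 with the smallest p. Per-library values of other members were chosen after their values were seen.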

Additional observations from a re-analysis of the deposited data

How the results depend on the processing

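The median log2 fold change of the 35 genes (0.13 to 0.19) and the number above 0 (25 to 29) kept their direction in all 15 alternatives. Counts of calls did not. Leaving out 1 library gave 0 to 4 members higher and 0 to 2 lower, and 3 to 179 genes higher and 21 to 266 lower over the whole table. In the same fits p53 regulators had 0 higher and 0 to 1 lower, further targets 0 to 3 higher and 0 lower, and p21-repressed genes 0 to 1 higher and 0 lower. With the replicate block 8 members, 2 regulators and 7 further targets were called higher and 1, 2 and 2 lower, of 410 higher and 651 lower genes in all. The block changed no other call of a member. With the block and without replicate 2 of both groups the calls were 15 members, 3 regulators, 14 further targets and 5 p21-repressed genes higher and 3, 2, 6 and 0 lower, of 1122 and 1269 genes. Without replicate 2 and without the block, a fit added after seeing the data, they were 13, 3, 10 and 5 higher and 3, 2, 5 and 0 lower, of 976 and 1165. DESeq2 called 1 member higher and 91 genes higher in all. The cause of these differences was not tested.

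The sign changed in 1 or more alternatives for 9 members, none of which was called: PMAIP1, whose log2 fold change of 0.12 has the largest standard error, and 8 members whose values lay between -0.07 and 0.06. MDM4 came to 0.0051 with DESeq2 size factors, 0.0050 by DESeq2, 0.0033 with the stricter filter and 0.0013 without replicate 2. BBC3 came to 0.00060 with DESeq2 size factors and 0.0032 by DESeq2. RRM2B came to 0.012 and PLK2 to 0.018 with the block and without replicate 2, and to 0.012 and 0.016 without replicate 2 alone. Leaving out 1 library moved MDM4 from -0.073 to 0.069, BBC3 from -0.13 to 0.13, TP53INP1 from -0.085 to 0.19, TP53I3 from -0.023 to 0.14, RRM2B from -0.12 to 0.0067, POLH from -0.024 to 0.11, PLK2 from -0.053 to 0.027, CYFIP2 from -0.041 to 0.0066 and PMAIP1 from -0.19 to 0.42. With 3 libraries a group, the members' median standard error was 0.11, beside a median log2 fold change of 0.15. PLK3, E2F7, TLR3, RRM2 and KIF23 have no value under the stricter filter, 5 CPM in 3 libraries.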
